A study of Mus musculus with 4 samples.

Results

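The clustered protocadherins were taken as every gene of the tables whose symbol starts with Pcdha, Pcdhb or Pcdhg and names a member of the alpha, beta or gamma cluster. This rule gave 56 of the 27645 genes, 13 of the alpha, 22 of the beta and 21 of the gamma cluster, and 5 of them were C-type members (Pcdhac1, Pcdhac2, Pcdhgc3, Pcdhgc4 and Pcdhgc5).

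Clustered protocadherins are cell adhesion proteins of the cadherin superfamily, and most variants bind the same variant on a neighboring cell. In neurons, each variable exon has its own promoter, and single cells switch on different sets of promoters with the help of CTCF, cohesin and DNA methylation. The combination of variants on a neuron is known to serve the recognition of self, whereas C-type members are known to be used more uniformly.

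Single-cell transcriptomes were measured in 4 neural stem cell (NSC) lines derived from 129/Sv epiblast stem cells (EpiSCs), with 1 BD Rhapsody whole-transcriptome library for each line. All lines were grown with the growth factors EGF and FGF2, each at 10 ng/ml. The XN4 and XN1 lines also received 10 µM XAV939, a Wnt antagonist, which came from different suppliers, and that used for XN1 formed crystals in the medium. CN4 received 2 µM CHIR99021, a Wnt agonist, and KN1 received neither compound. XN1 and KN1 were established in 1 experiment, and XN4 and CN4 in another with a different experimenter, so compound, experiment, line and library cannot be told apart. The tables of all reads held 8741 cells of XN4, 14452 of XN1 and 18157 of CN4, with median depths of 12615, 5982 and 9173 reads per cell. For KN1, only a normalized table of 3975 cells was used, in which reads per cell (median 5862) were recovered from the log values. Its median of 833 genes per cell was below the 2379 to 3095 of the other tables, although the study describes the same procedure for the 4 lines. Pipeline settings and the cell filter of KN1 could not be compared with those of the other lines. Between 37 and 320 cell barcodes were shared by each pair of libraries, and the number to be shared by chance was not computed. Where values follow without names, they stand for XN4, XN1, CN4 and KN1 in this order, or for the first 3 of these.

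The lines were checked against cell type markers. In XN4, 6 of 12 neural progenitor markers were found in at least 1% of cells, and the defining marker Sox2 in 0.561% of cells, against 63.5% in XN1, 85.9% in CN4 and 13.9% in KN1. The collagen gene Col3a1, a mesenchymal marker, was found in 97.7% of XN4 cells and in 0.228% to 1.23% of cells of the other lines. The summed level of the mesenchymal markers in the normalized tables was 7300 RPM (reads of a gene for each 1000000 reads of the line) in XN4 and 4.68 to 153 in the others. XN4 thus went against its label in these markers, and beside the comparisons with XN4, that of CN4 with XN1 is given below for the members and for each list of related genes. The part of this difference in the results was not tested. Libraries also differed in the reads behind a detection. A detected member had a mean of 5.88 reads in KN1, 2.15 in XN4, 1.40 in XN1 and 1.44 in CN4.

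The 56 members lie on chromosome 18 (GRCm38, plus strand) in the order alpha (36930184 to 37187661), beta (37264938 to 37524479) and gamma (37661793 to 37841873). Alpha and gamma members splice a variable exon to constant exons shared within their cluster, so a median of 46.4% of the annotated exon bases of an alpha member and 55.4% of those of a gamma member belonged to no other gene. In contrast, 20 of the 22 beta genes had exons of their own throughout, and the other 2, Pcdhb21 and Pcdhb22, overlap each other (37513621 to 37518325 and 37517871 to 37524479). How reads in shared exons were assigned is not given in the sources used here, and values of single alpha and gamma members are therefore uncertain. The same holds for the totals of these clusters beside the beta cluster. Pcdhgb8 is annotated as a polymorphic pseudogene and was not a gene of the tables.

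A member was scored as detected in a cell with at least 1 read. At least 1 member was detected in 83.2% of XN1 cells (exact 95% interval 82.6% to 83.8%), 57.4% of XN4 cells (56.4% to 58.4%), 76.4% of CN4 cells (75.7% to 77.0%) and 25.1% of KN1 cells (23.7% to 26.5%). With each cell of the normalized tables thinned to 3200 reads, the fractions were 37.4%, 73.6%, 56.3% and 22.8%, leaving out 543, 776, 290 and 579 shallower cells. When 2 reads were required for a member, they were 38.4%, 39.6%, 36.4% and 20.9%, so XN1, CN4 and XN4 lay close together by this count. All intervals cover counting error of 1 library, and reads are not independent molecules. As no cell type lacking the members was at hand, the fraction due to free RNA was not measured. The summed level of the members in the normalized tables was 210 RPM in XN4, 510 in XN1, 314 in CN4 and 273 in KN1. XN1 had the highest RPM of the members. KN1 was above XN4 in RPM but below it in the fraction of cells, so no order is given for these 2 lines.

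The beta cluster held most of the reads assigned to members. It took 83.9% of all member reads in XN4, 90.9% in XN1, 90.7% in CN4 and 67.1% in KN1. A beta member was detected in 50.5% of XN4, 80.5% of XN1, 72.9% of CN4 and 17.6% of KN1 cells. Gamma members followed with 13.3%, 14.3%, 9.76% and 6.34% of cells. Alpha members were found in 5.86%, 4.86%, 7.09% and 4.10% of cells. In thinned cells, over the members listed there, gamma members were found in 6.44%, 8.95%, 4.84% and 5.54%. Alpha members were found in 2.36%, 3.23%, 3.23% and 3.47% of thinned cells. The order of the lines was thus not kept for the alpha and gamma clusters. Of the 56 members, 31 reached 1% of cells in at least 1 line, and 25 did so in none, namely 9 alpha members including Pcdhac1, 13 gamma members and the beta genes Pcdhb1, Pcdhb12 and Pcdhb13. In XN4, the 35 members under 1% lay between 0.0114% and 0.995% of cells. Pcdhb1 was not listed for XN1, and 23 members were not listed for KN1 and have no value there.

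**Figure D1:**
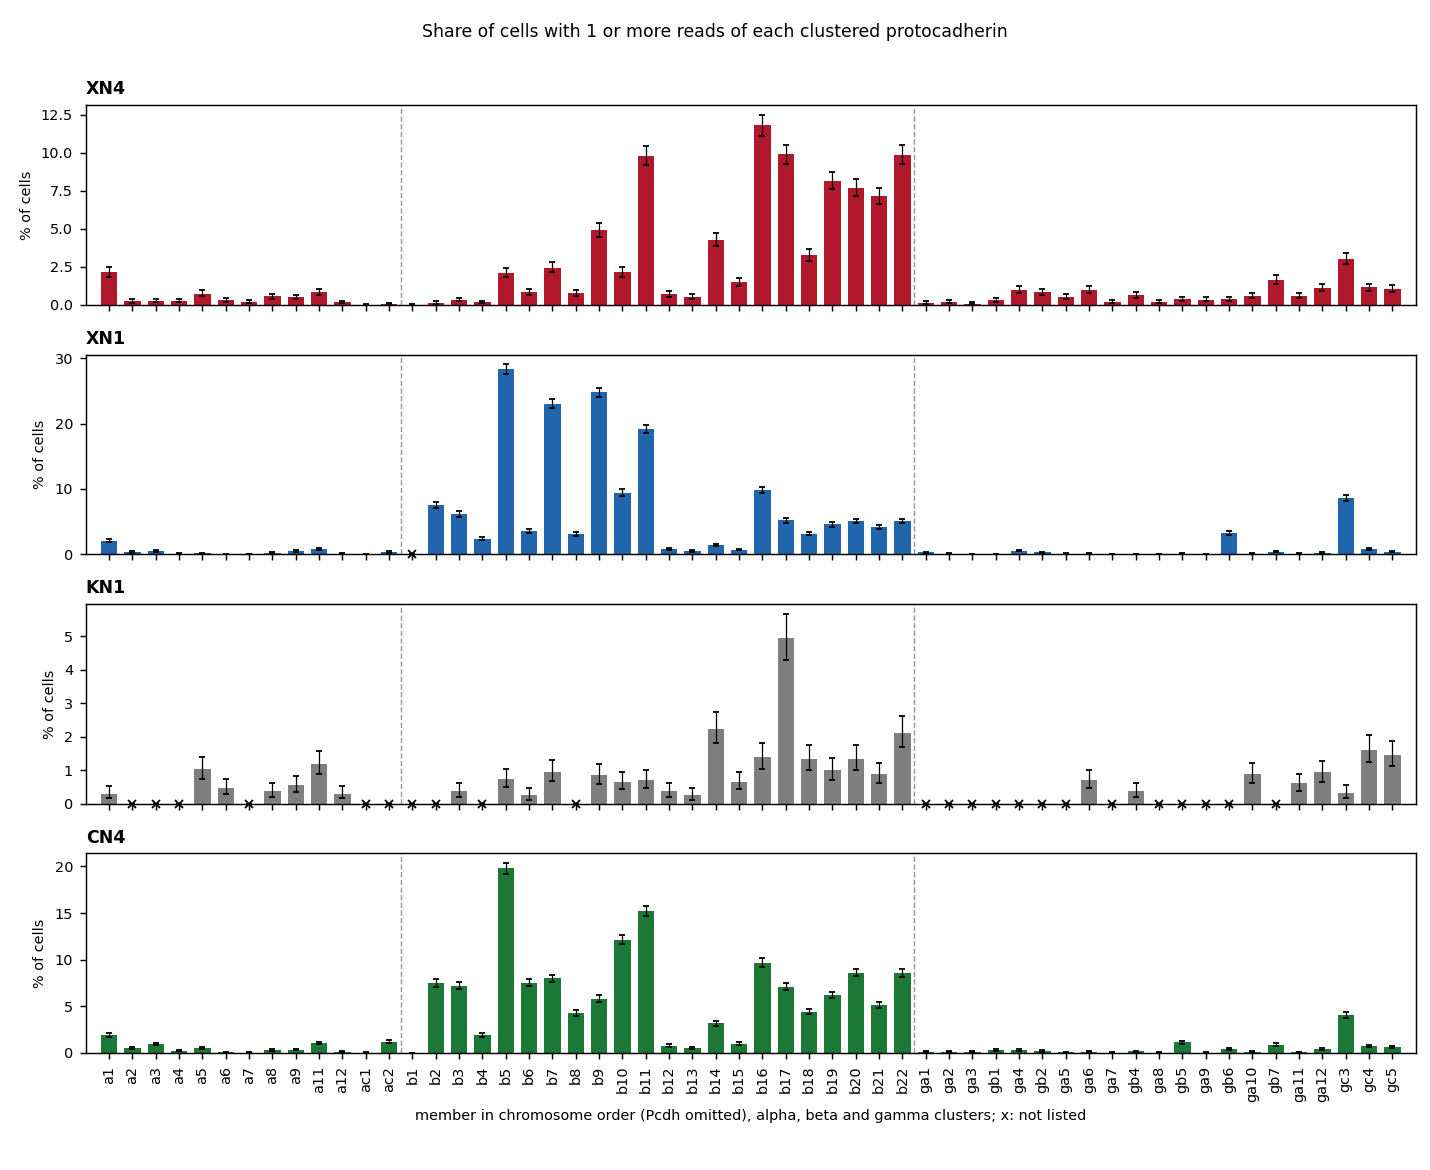
Fraction of cells with 1 or more reads of each of the 56 members, in chromosome order, for the 4 lines (each panel with its own vertical axis; bars, observed fraction; error bars, exact 95% interval; dashed lines, cluster borders). XN1 and CN4 peak at Pcdhb5 (28.3% and 19.8%), XN4 at Pcdhb16 (11.8%) and KN1 at Pcdhb17 (4.96%).

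Per length, the leading beta genes differed between the lines. The level was set as RPM per kilobase of own exon. In XN1, Pcdhb9 (19.7), Pcdhb5 (19) and Pcdhb7 (16.0) led on this scale. Pcdhb5 (9.13), Pcdhb10 (6.72) and Pcdhb11 (4.92) led in CN4. XN4 had Pcdhb16 (3.34), Pcdhb20 (3.16) and Pcdhb11 (2.98) at its top, where neighbors in the order lay close together. In the normalized table of KN1, Pcdhb17 (11.5) stood above Pcdhb20 (3.70). Whether reads rose with exon length was not tested. By RPM alone, Pcdhb22 stood above Pcdhb20 in XN4 (14.2 against 11.3) and in KN1 (19.7 against 13.2). The 3 leading genes of XN1, and Pcdhb5 and Pcdhb10 of CN4, thus lay in the 5′ portion of the beta cluster. Pcdhb11, farther 3′, was among the 3 leading genes of both CN4 and XN4. In RPM, however, Pcdhb11 was higher in XN1 (42.3) than in CN4 (21.7) and XN4 (13.2).

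Large differences were found in a stretch of 9 neighboring genes, Pcdhb2 to Pcdhb10, which was delimited after the values were seen. Pcdhb5 (37320381 to 37323915) was detected in 28.3% of XN1 cells (27.6% to 29.1%), 2.13% of XN4 cells (1.84% to 2.45%), 19.8% of CN4 cells (19.2% to 20.4%) and 0.730% of KN1 cells (0.489% to 1.05%). In RPM of the normalized tables, Pcdhb5 was at 4.84 in XN4, 82.2 in XN1, 42.7 in CN4 and 4.06 in KN1. Thus, XN1 and CN4 were high, and XN4 and KN1 were low. Pcdhb2 (37294812 to 37297624) was detected in 0.137% of XN4 cells, 7.55% of XN1 cells and 7.49% of CN4 cells, and was not listed for KN1. Pcdhb7 and Pcdhb9 were found in 23.0% and 24.8% of XN1 cells but in 8.0% and 5.82% of CN4 cells. In this respect, XN1 and CN4 differed from each other within the stretch.

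A member was called different between 2 lines when its summed RPM differed by 2-fold or more, among genes found in at least 1% of cells of either line. With 1 library for each line, no test between lines was possible, and intervals of a fold again cover counting error only. In XN1 compared with XN4, 12 of 27 members were higher and 2 lower, whereas 16.7% of all genes compared were higher and 16.8% lower. The median log2 fold was 0.66 for the members and 0.02 for all genes. Of the 12 higher members, 6 reached 1% of cells in XN1 alone, as the 2 lower ones did in XN4 alone. Without the filter on rare genes, 16 of 56 members were higher and 16 lower (14.4% and 17.6% of all genes), so that higher members did not outnumber lower ones over all 56. All 9 genes from Pcdhb2 to Pcdhb10 were higher, from 6.79-fold for Pcdhb8 to 90.6-fold for Pcdhb2 (60.1 to 143). Pcdhb3 was 23.3-fold (18.3 to 29.9), Pcdhb5 19.1-fold (17.4 to 20.9) and Pcdhb10 7.01-fold (6.29 to 7.82) higher. Pcdhb11, the next gene, was 3.21-fold higher (3.04 to 3.40). The fold tended to become smaller from Pcdhb2 toward Pcdhb11, but not steadily. From Pcdhb6 to Pcdhb10, the folds were 6.79, 15.9, 6.79, 7.36 and 7.01. The folds of Pcdhb2 and Pcdhb4 rested on 23 and 27 reads in XN4.

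In CN4 compared with XN4, 10 of 29 members were higher and 2 lower, beside 18.6% and 17.6% of all genes. The median log2 fold was 0.22 for the members and 0.10 for all genes. Of the 10 higher members, 7 reached 1% of cells in CN4 alone, and without the filter 12 were higher and 13 lower (14.4% and 21.3% of all genes). Of the 9 genes from Pcdhb2 to Pcdhb10, 8 were higher, by up to 64.3-fold for Pcdhb2 (42.7 to 102). Pcdhb9 was within 2-fold (1.12-fold, 1.03 to 1.20). Both comparisons share the XN4 library.

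CN4 compared with XN1, which does not involve XN4, gave 2 of 24 members higher and 5 lower, beside 9.46% and 9.77% of all genes. The 2 higher members reached 1% of cells in CN4 alone, and 1 of the 5 lower ones in XN1 alone. Without the filter, 7 of 56 were higher and 9 lower (9.13% and 11.0% of all genes). Pcdhb9 was 6.60-fold, Pcdhb7 4.54-fold and Pcdhb5 2.08-fold lower in CN4. The other 6 genes of the stretch were within 2-fold, with Pcdhb8 at 5.82 against 5.85 and Pcdhb10 at 19.1 against 20.3 RPM. In the normalized tables, the sum of Pcdhb2 to Pcdhb10 was 29.6 RPM in XN4 (7 of the 9 genes listed), 306 in XN1, 150 in CN4 and 27.9 in KN1 (6 of the 9 genes listed).

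The 3′ portion of the beta cluster was at more similar levels in XN4, XN1 and CN4. From Pcdhb12 to Pcdhb22, none of the 9 genes compared was past 2-fold in XN1 or CN4 against XN4, nor any of 8 in CN4 against XN1. In XN1 against XN4, 16.7% of all genes were higher and 16.8% lower. These shares were 18.6% and 17.6% in CN4 against XN4, and 9.46% and 9.77% in CN4 against XN1. The borders of this stretch were also chosen after the values were seen. They leave out Pcdhb11, which was 3.21-fold higher in XN1 than in XN4. With median-of-ratios size factors in place of total reads, Pcdhb14 passed 2-fold and was lower in XN1 than in XN4. Log2 folds of the genes compared ranged from -0.98 (Pcdhb14) to 0.66 (Pcdhb18) for XN1 against XN4. For CN4 against XN4, they ranged from -0.62 to 0.64. Pcdhb20, for example, was at 14.4 RPM in XN4, 14.3 in XN1, 17.8 in CN4 and 13.2 in KN1 in the normalized tables. In the tables of all reads, Pcdhb16 (37477814 to 37483038) was at 17.4, 20.5 and 14.2 RPM in XN4, XN1 and CN4. The sum of Pcdhb11 to Pcdhb22 in the normalized tables was 146 RPM in XN4, 160 in XN1, 139 in CN4 and 155 in KN1. This sum, which includes Pcdhb11, differed less between the lines than that of Pcdhb2 to Pcdhb10. As the stretches were chosen by the values, this contrast is not a separate result. Behind the like sums of KN1 and XN1, single genes differed in both directions. Pcdhb11 was at 5.01 RPM in KN1 and 54.7 in XN1, and Pcdhb17 at 53.5 and 13.9. Of 8 genes compared from Pcdhb12 to Pcdhb22, 2 were higher and 1 lower in KN1 than in XN1 (23.9% and 23.0% of all genes). In the fraction of thinned cells, the values were as follows. At least 1 of Pcdhb11 to Pcdhb22 was found in 27.7%, 34.5% and 30.4% of thinned XN4, XN1 and CN4 cells but in 13.4% of thinned KN1 cells, and Pcdhb20 in 3.28%, 3.52%, 4.62% and 1.12%. Over all genes, the median ratio of this fraction was 0.465 for KN1 to XN4 and 0.419 for KN1 to XN1, so a lower fraction in KN1 was not particular to these genes. For Pcdhb2 to Pcdhb10, these fractions were 6.18%, 55.2%, 32.6% and 3.09%.

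**Figure D2:**
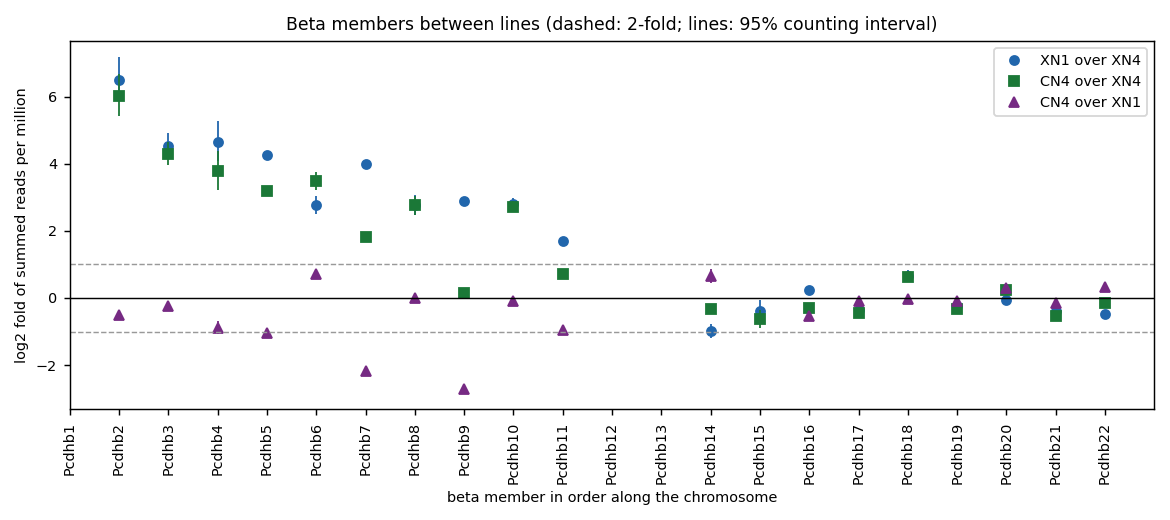
Log2 fold of summed RPM of beta members between pairs of lines, in chromosome order (points, log2 fold; vertical lines, 95% counting interval, often smaller than the point; dashed lines, 2-fold). Above XN4 past 2-fold are 9 of 9 (XN1) and 8 of 9 (CN4) genes from Pcdhb2 to Pcdhb10 but none from Pcdhb14 to Pcdhb22. Of all genes compared, 16.7% (XN1) and 18.6% (CN4) were above XN4 past 2-fold. Pcdhb1, Pcdhb12 and Pcdhb13 were under 1% of cells and were not compared.

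Gamma members past 2-fold between XN1 and XN4 went in both directions. Pcdhgc3, a C-type member used broadly in neural tissue, was detected in 3.03% of XN4 (2.68% to 3.41%), 8.53% of XN1 (8.08% to 9.0%), 4.06% of CN4 (3.78% to 4.36%) and 0.327% of KN1 cells (0.174% to 0.559%). In reads, it was 4.91-fold higher in XN1 than in XN4 (4.42 to 5.47) and 3.23-fold lower in CN4 than in XN1. Pcdhgb6 was found in 3.22% of XN1 cells but in 0.389% of XN4 and 0.441% of CN4 cells, and was 12.1-fold higher in XN1 than in XN4 (9.43 to 15.9). Pcdhgb5 instead was found in 1.14% of CN4 cells and in 0.366% of XN4 and 0.0554% of XN1 cells. In XN4, which had the highest median depth per cell, 6 of 21 gamma members reached 1% of cells, against 2 in each of XN1, CN4 and KN1. This order did not hold when each cell was thinned to the same number of reads, as 0 in XN4, 2 in XN1, 1 in CN4 and 2 in KN1 reached 1% of thinned cells. Pcdhgb7 and Pcdhga12 were higher in XN4 (1.66% and 1.13% of cells) than in XN1 (0.353% and 0.208%), and these were the 2 members called lower in XN1.

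Among alpha members, Pcdha1 was found in 2.14%, 2.10% and 1.94% of XN4, XN1 and CN4 cells and in 0.302% of KN1 cells. In thinned cells, these fractions were 0.916%, 1.66%, 0.760% and 0.177%. The C-type members of the cluster were rare. Pcdhac2 was detected in 1.17% of CN4 cells (1.02% to 1.34%), 0.311% of XN1 cells and 0.0686% of XN4 cells, so that its 24.1-fold difference between CN4 and XN4 rested on 8 reads in XN4. Pcdhac1 stayed at 0.0330% of cells or less. The C-type members Pcdhgc4 and Pcdhgc5 were found in 0.401% to 1.61% of cells in the 4 lines.

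KN1 was compared in the normalized tables, over members listed in both tables. KN1 had 7 of 21 members higher and 3 lower than XN4 (21.7% and 22.2% of all genes), and 5 of 20 higher and 10 lower than XN1 (23.9% and 23.0%). CN4 had 7 of 21 higher and 6 lower than KN1 (21.4% and 20.7%). All 7 of these higher members reached 1% of cells in CN4 alone, and 4 of the 6 lower ones in KN1 alone. Without the filter, 7 of 25 were higher and 8 lower in CN4 than in KN1, beside 43.8% of all genes past 2-fold in either direction. All 6 genes compared between Pcdhb3 and Pcdhb10 were lower in KN1 than in XN1, with log2 folds of -4.34 (Pcdhb5) to -2.00 (Pcdhb6), whereas 0 of 4 were past 2-fold against XN4. These 6 were under 1% of cells in KN1 and passed the filter through XN1 alone, as did 9 of the 10 lower members. Of the 5 members higher than XN1, 3 passed it through KN1 alone. Against XN4, 2 of the 7 higher members passed through KN1 alone and 2 of the 3 lower ones through XN4 alone. In reads, Pcdhb14 and Pcdhb17 of the 3′ portion were higher and Pcdhb16 lower in KN1 than in XN4 and XN1. As KN1 had more reads for each detected value, the folds were set beside the fraction of cells after thinning to 3200 reads. By this fraction, 1 of 21 members was higher and 9 lower in KN1 than in XN4 (9.50% and 53.9% of all genes), and 2 of 20 higher and 14 lower than in XN1 (7.35% and 58.1%). CN4 had 15 of 21 higher and 3 lower than KN1 (60.6% and 6.11%). The median log2 ratio of this fraction over all genes was -1.10 for KN1 against XN4 and -1.25 against XN1, so a lower fraction in KN1 was common to most genes. Of the 7 members higher than XN4 in reads, 1 (Pcdha5) was also higher in the fraction of cells. Pcdhb5 was found in 0.589% of thinned KN1 cells and 20.2% of thinned XN1 cells, Pcdhb11 in 0.559% and 14.2%, and Pcdhgc3 in 0.265% and 5.82%. These 3 were thus lower in KN1 than in XN1 on both scales. Pcdhgc4 and Pcdhgc5, C-type members, were 7.96-fold and 15.1-fold higher in KN1 than in XN1, and found in 1.24% against 0.415% and 1.27% against 0.224% of thinned cells. Pcdhb17, the leading member of KN1, was 3.85-fold above XN1 in reads, but its thinned fractions were 4.59% in KN1, 3.64% in XN1, 4.46% in XN4 and 3.80% in CN4. Likewise, Pcdhb14 was 2.33-fold above XN4 and 4.40-fold above XN1 in reads, and found in 1.91% of thinned KN1, 2.07% of XN4 and 1.37% of XN1 cells. Both genes were therefore within 2-fold in the fraction of cells.

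The number of members in a cell was examined next, because neurons are known to combine several of them. The mean number was 1.10 in XN4, 1.88 in XN1, 1.62 in CN4 and 0.322 in KN1, and the highest number in 1 cell was 9, 10, 12 and 7. These means rose with depth. From the shallowest to the deepest of 20 strata of cells, ordered by total reads, they went from 0.317 to 3.04 in XN4, from 0.931 to 3.26 in XN1, from 0.126 to 0.909 in KN1 and from 0.691 to 2.76 in CN4. Expected fractions were therefore computed within these strata, as if members were detected independently of each other.

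Cells with 3 or more members made up 13.5% in XN4 (12.8% to 14.2%, 12.6% expected), 29.0% in XN1 (28.3% to 29.7%, 29.2% expected), 23.4% in CN4 (22.8% to 24.0%, 22.5% expected) and 1.38% in KN1 (1.04% to 1.80%, 0.716% expected). The expected fraction thus lay below the interval in XN4, CN4 and KN1, and within it in XN1. Cells with 2 members made up 15.7% against 16.8% expected in XN4, 26.1% against 27.0% in XN1, 22.5% against 25.7% in CN4 and 3.92% against 4.04% in KN1, and the interval included the expected value in KN1 alone. Cells with no member were more frequent than expected in each line, with 42.6% against 39.0% in XN4, 16.8% against 15.3% in XN1, 74.9% against 73.4% in KN1 and 23.6% against 20.2% in CN4. Cells with 1 member made up 28.2% against 31.5% expected in XN4, 28.0% (27.3% to 28.8%) against 28.6% in XN1, 30.5% against 31.7% in CN4 and 19.8% against 21.8% in KN1. They were thus fewer than expected in XN4, CN4 and KN1, whereas the interval of XN1 included the expected value. Thus, no excess of cells with 1 member was found in any of the 4 lines.

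**Figure D3:**
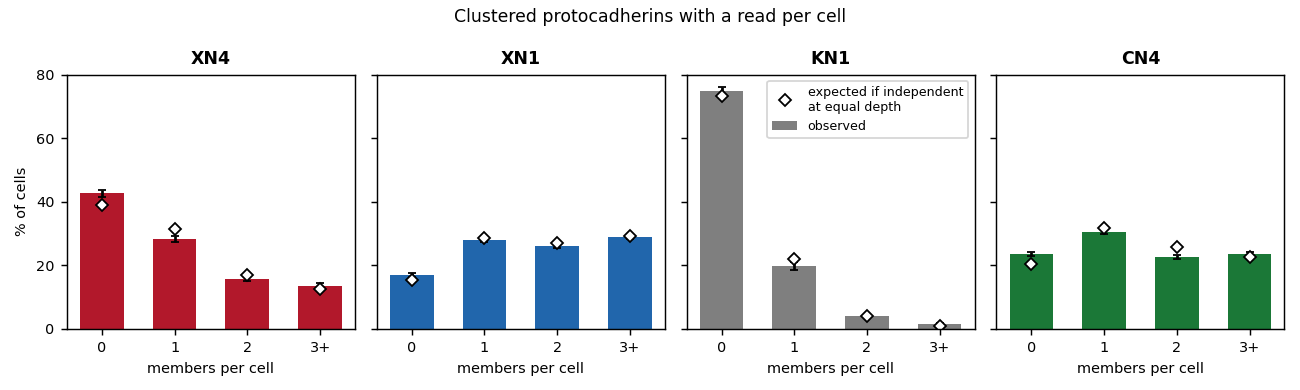
Fraction of cells with 0, 1, 2 and 3 or more members in each line (bars, observed, with exact 95% interval; diamonds, expected from the detection rates within 20 strata of total reads). The bars for 0 members lie above the diamonds in the 4 lines, and those for 1 member below them.

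For each pair of members, cells with both were counted and divided by the expected number of the strata. Over all pairs, the ratio was 1.17 in XN4 (8151 observed, 1.14 to 1.19), 1.06 in XN1 (26860, 1.05 to 1.07), 1.15 in CN4 (27724, 1.13 to 1.16) and 1.45 in KN1 (377, 1.31 to 1.61). A cell with several members enters several pairs, so these Poisson intervals are too narrow. Without strata, the ratios were 1.63, 1.14, 1.23 and 1.94. Over all gene pairs of a line, the median ratio within strata was 1.00 to 1.01. Among member pairs with at least 5 expected cells, 22 of 164 in XN4 were at 1.5 or more, beside 0.572% of all gene pairs. In XN1, these were 7 of 208 (0.548% of all gene pairs), in CN4 13 of 244 (0.353%) and in KN1 both of the 2 pairs (3.19%). Pairs of members were thus more often at 1.5 or more than gene pairs in general, but most ratios stayed near 1, with a median of 1.12 in XN4, 1.05 in XN1 and 1.13 in CN4. The gene pairs were not matched to the member pairs in their number of expected cells. The lowest ratio was 0.367 for Pcdhb18 with Pcdhgb7 in XN4 (3 cells, 0.0757 to 1.07). In CN4, ratios went down to 0.574, and Pcdhb9 with Pcdhb14 were at 0.611 (22 cells, 0.383 to 0.925). This was the 1 pair of 244 in CN4 with an interval below 1, beside 48 with an interval above 1. In XN4 and XN1, 0 pairs had an interval below 1, and 20 and 18 had one above 1. In KN1, 0 of the 2 pairs had an interval above 1, and 0 had one below 1.

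Pairs next to each other in the beta cluster had higher ratios than pairs farther apart. Adjacent beta pairs had a pooled ratio of 1.59 in XN4 (10 pairs, 1.49 to 1.70), 1.18 in XN1 (15 pairs, 1.13 to 1.23) and 1.37 in CN4 (15 pairs, 1.31 to 1.42). Pairs over 5 places apart had 1.03 in XN4, 1.03 in XN1 and 1.11 in CN4, and those 2 to 5 places apart lay between (1.19, 1.06 and 1.17). The adjacent pairs differed among themselves. Pcdhb21 with Pcdhb22, whose exons overlap, were highest with 2.24 in XN4 (213 cells against 95 expected), 3.05 in XN1 (99 against 32.5) and 2.56 in CN4 (217 against 84.8). Pcdhb16 with Pcdhb17, which lie 1756 bases apart, had 1.42, 2.12 and 1.93. For Pcdhb19 with Pcdhb20, 135 bases apart, the ratios were 1.61, 1.70 and 1.90. Pcdhb17 with Pcdhb18, only 10 bases apart, had 1.84, 1.47 and 1.31. Pcdhb2 with Pcdhb3, 3174 bases apart, had 1.72 in XN1 and 1.89 in CN4. On the other hand, Pcdhb9 with Pcdhb10, 7754 bases apart, were at 0.917 in XN1 (0.821 to 1.02) and 1.03 in CN4 (0.866 to 1.21), although both were frequent there.

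Adjacent genes less than 2 kb apart, a limit chosen after the values were seen, had ratios of 1.42 to 2.24 in XN4 (5 pairs), 1.47 to 3.05 in XN1 (4 pairs) and 1.31 to 2.56 in CN4 (4 pairs). Those farther apart had 1.25 to 1.49, 0.917 to 1.72 and 1.03 to 1.89. Whether reads of 1 transcript were counted for 2 neighboring genes was not tested. With at least 2 reads for each member, the pooled ratio of adjacent pairs was 1.70 in XN4, 1.13 in XN1 and 1.59 in CN4. Without Pcdhb21 with Pcdhb22, it was 1.45, 1.14 and 1.30.

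**Figure D4:**
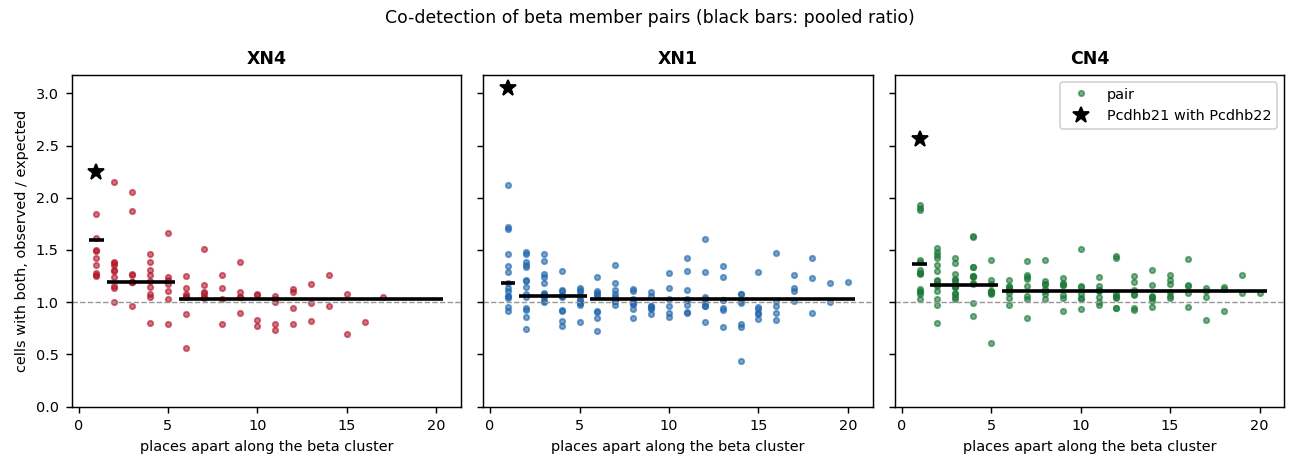
Ratio of observed to expected cells with both members, for beta pairs with at least 5 expected cells, by their places apart in the cluster (points, pairs; star, Pcdhb21 with Pcdhb22; black bars, pooled ratio of adjacent pairs, pairs 2 to 5 and over 5 places apart; dashed line, 1). The pooled ratios fall from 1.59 to 1.03 in XN4, from 1.18 to 1.03 in XN1 and from 1.37 to 1.11 in CN4.

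Pairs within the alpha and the gamma cluster were few. Counts here are cells summed over pairs, so a cell with several pairs is counted more than once. In XN4, alpha pairs had a ratio of 2.68 (count 41, 1.92 to 3.63) and gamma pairs 1.80 (count 221, 1.57 to 2.05). Members of both clusters share their constant exons. In XN1, these ratios were 1.12 (0.654 to 1.80) and 1.08 (0.902 to 1.29), with intervals that include 1, and in CN4 1.10 (0.812 to 1.45) and 1.25 (1.03 to 1.52). Pairs of a beta with a gamma member had 1.11 in XN4, 1.05 in XN1, 1.12 in CN4 and 1.05 in KN1 (0.842 to 1.30). In KN1, the ratio was 1.93 for gamma pairs (count 23, 1.22 to 2.89). It was 1.82 for alpha with gamma (count 27, 1.20 to 2.65) and 1.51 for alpha with beta members (count 65, 1.16 to 1.92). Alpha pairs were at 1.58 in KN1, with an interval that includes 1 (count 5, 0.512 to 3.68). Cells with an alpha, a beta and a gamma member together were found, 70 in XN4, 112 in XN1, 141 in CN4 and 9 in KN1.

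The members were also set beside cell type and cell cycle markers in the same cells. G2-M phase markers, which mark dividing cells, were found with members less often than expected. The pooled ratio over 6 markers was 0.830 in XN4 (0.816 to 0.843), 0.864 in XN1 (0.855 to 0.873), 0.897 in CN4 (0.891 to 0.903) and 0.902 in KN1 (0.853 to 0.953), and each of the 6 was below 1 in each line. A cell can enter several pairs here too, so these intervals are too narrow. For Ccnb1, a cyclin of the entry into mitosis, the ratios were 0.717, 0.812, 0.841 and 0.752, and for Mki67, a marker of cycling cells, 0.788, 0.841, 0.899 and 0.930. Over all other genes, the median was 1.02, 1.01, 1.01 and 0.979. Among all genes of a line, 0.204% had a lower ratio than Ccnb1 in XN4, 0.251% in XN1, 0.291% in CN4 and 1.94% in KN1. In XN4, XN1 and CN4, the other 5 markers had between 0.534% and 4.40% of all genes below them. In KN1, however, Mki67, Top2a, Cenpf and Cdk1 had 32.1% to 39.8% of all genes below them, and their intervals included 1. With strata by the number of genes detected, the pooled ratio was 0.823, 0.849, 0.894 and 0.915.

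Neural progenitor markers had ratios near 1, with 1.02 in XN4, 1.00 in XN1, 1.00 in CN4 and 0.987 in KN1. In CN4, the pooled ratio was 1.01 for neuron, 1.02 for astrocyte and 1.02 for oligodendrocyte precursor markers. Among the highest, chosen after their values were seen, Sox10, a regulator of the oligodendrocyte lineage, had 1.35 (1.25 to 1.45), the neuronal tubulin Tubb3 1.19 (1.10 to 1.28) and the astrocyte gene Gfap 1.16 (1.10 to 1.22). In contrast, 4 of 11 neuron genes, such as Elavl4 (0.966) and Gap43 (0.984), and 2 of 6 astrocyte genes, Gja1 (0.979) and Aldh1l1 (0.982), were below 1 in CN4. Gfap had 1.09 in XN1 (1.03 to 1.16), whereas Tubb3 was at 0.982 there (0.904 to 1.06). The mesenchymal markers, frequent in XN4, had 1.02 in that line.

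**Figure D5:**
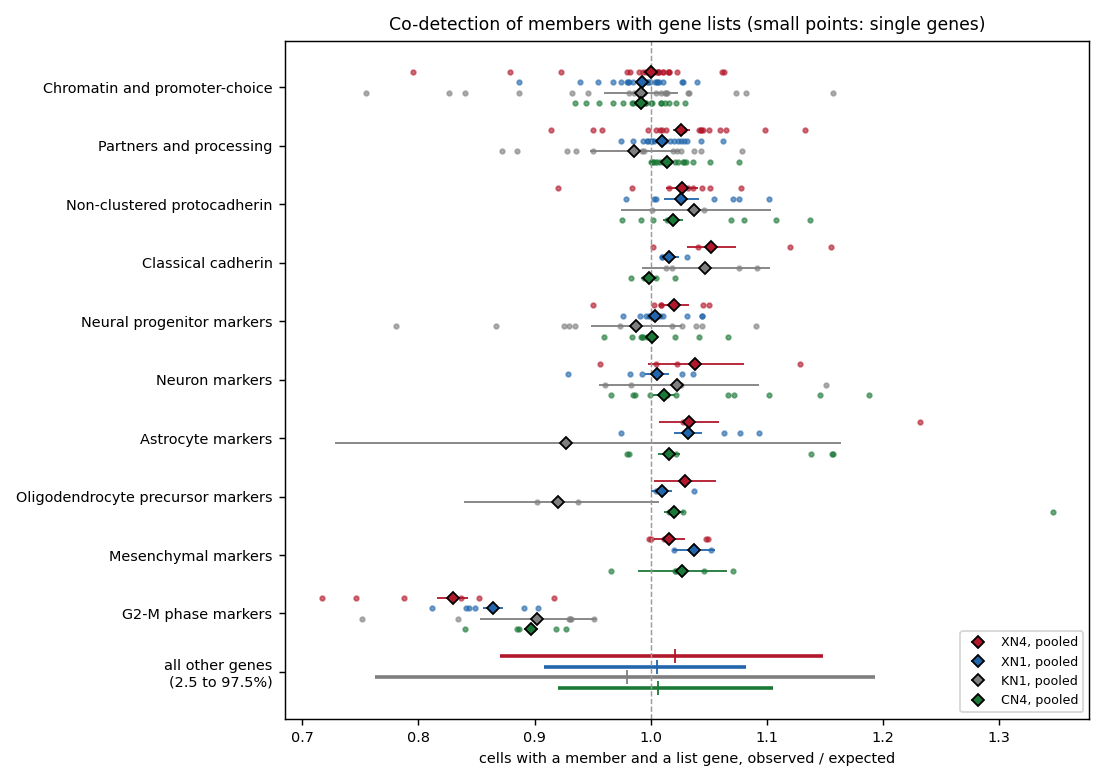
Ratio of observed to expected cells with a member and a gene of each list, pooled over the genes with at least 50 expected cells (diamonds, pooled ratio; thin lines, 95% counting interval; small points, single genes; bottom, median and central 95% range of all other single genes). The pooled ratios of the G2-M phase markers lie at 0.830 to 0.902, and those of the other lists between 0.920 and 1.05 in the 4 lines. The intervals are too narrow, as a cell can enter several pairs.

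Finally, genes related to the members by function were examined. Of 21 genes for chromatin and promoter choice, among them Ctcf, the cohesin subunits and the DNA methyltransferases, all were found in at least 1% of cells of each line. In XN1 compared with XN4, 0 were past 2-fold higher and 1 lower, namely Dnmt3b, the de novo methyltransferase, at 1.88 against 3.96 RPM (16.7% and 16.8% of all genes). CN4 compared with XN4 had 2 higher (Dnmt1 and Uhrf1, of maintenance methylation) and 0 lower (18.6% and 17.6% of all genes), and with XN1 3 higher (Dnmt3b, Setdb1 and Uhrf1) and 0 lower (9.46% and 9.77%). KN1 compared with XN1 had 7 higher (Dnmt3b, Nipbl, Pds5a, Pds5b, Setdb1, Smchd1 and Stag1) and 1 lower (Rad21), with a median log2 fold of 0.82, beside 23.9% and 23.0% of all genes. Of these 7, all but Dnmt3b (1.48% against 1.10% of cells) were found in a smaller fraction of cells in KN1 than in XN1, such as Nipbl in 39.8% against 55.3% and Pds5a in 20.1% against 31.6%. With XN4, KN1 had 1 higher (Smchd1) and 1 lower (Rad21), beside 21.7% and 22.2%. Smchd1, a repressor known to act on these clusters, was at 109, 113, 138 and 342 RPM of the normalized tables, but was found in 39.8%, 34.3%, 47.1% and 31.2% of their cells. In KN1, it was thus highest in reads and lowest in the fraction of cells.

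The 20 partners and processing genes, which include Wasf1 of the actin regulatory complex and the protease Adam10, had 6 higher and 2 lower in XN1 than in XN4 (16.7% and 16.8% of all genes), with a median log2 fold of 0.50. In CN4 compared with XN1, 1 of 19 was higher (Nlgn1) and 1 lower (Ret, beside 9.46% and 9.77% of all genes), with a median of -0.01. Non-clustered protocadherins are adhesion proteins with single genes elsewhere in the genome. In XN1 compared with XN4, 1 of 8 was higher and 3 were lower (16.7% and 16.8% of all genes), with a median log2 fold of -0.70, and in CN4 compared with XN1 3 of 8 were higher and 1 lower (9.46% and 9.77%), with a median of 0.41. Pcdh19 was found in 63.1% of XN4, 16.4% of XN1, 11.1% of CN4 and 3.42% of KN1 cells, and Pcdh9 in 2.88%, 1.82%, 45.5% and 58.1%. Of 5 classical cadherins compared, 4 were higher and 1 lower in XN1 than in XN4 (16.7% and 16.8% of all genes), whereas 1 (Cdh11) was higher and 0 lower in CN4 than in XN1 (9.46% and 9.77%), with a median log2 fold of -0.04. Cdh2 (N-cadherin) was in 8.92% of XN4, 61.8% of XN1, 85.3% of CN4 and 43.0% of KN1 cells. Cdh11, which is known from mesenchymal cells, was in 67.2%, 0.540%, 34.2% and 1.21%.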

How the data were processed

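The authors deposited read counts per gene and cell for XN4, XN1 and CN4, made with the BD Rhapsody WTA pipeline, intronic reads included, per the file headers. For all 4 lines, they deposited natural log values, ln(1 + 10000 × reads / total), with ribosomal and mitochondrial genes left out. Seurat 4.3.0 and mm10 stand in the submitters' processing notes. Reads were recovered from the log values as whole multiples of the smallest step. These are reads, not molecules. Positions are from GENCODE on GRCm38, and its release differs from that of the pipeline. No doublets were removed. Exact (Clopper-Pearson) 95% intervals were used for cell fractions and Poisson intervals for cells with both genes. Poisson intervals of pooled ratios are too narrow, as a cell can enter several pairs. Folds were ratios of summed RPM, with a floor of 3 reads. Scripts ran on Python 3.11.15 with scipy 1.17.1 and were tested on simulated data. The members described by their values are those in at least 1% of cells of a line, the C-type members and the extreme pairs; others are named only as under 1% or by position. The members and lists were chosen with earlier results of these data known. No test between lines was made, because each is 1 library.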

Additional observations from a re-analysis of the deposited data

Results flagged for a closer look

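Genes antisense to member exons lie outside the rule but had reads above the limit of 3 cells. BC037039, antisense to Pcdhgc3, was found in 0.721% of XN4, 1.22% of XN1 and 2.18% of CN4 cells. Whether counting used strand is not given in the sources used here, so its reads and those of Pcdhgc3 cannot be told apart. Gm10545, antisense to Pcdha11 and Pcdha12, was found in 0.0936% of CN4 cells. Gm37165, antisense to Pcdhga7 and Pcdhga8, was found in 0.0458%, 0.0900% and 0.0220% of XN4, XN1 and CN4 cells. Gm37446, antisense to Pcdhb12, was found in 0.0458%, 0.0346% and 0.0386%. None of these genes was listed for KN1.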

How the results depend on the processing

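At least 1 member was found in 38.4% of XN4, 39.6% of XN1, 20.9% of KN1 and 36.4% of CN4 cells when 2 reads were required, with means of 0.581, 0.524, 0.259 and 0.485 members per cell. The next values follow this same order, XN4, XN1, KN1 and CN4. The fraction was 55.6%, 82.2% and 73.6% in XN4, XN1 and CN4 with only the cells of the normalized tables (means 1.05, 1.82 and 1.47). Without the 5% of cells with the most reads, it was 55.5%, 82.5%, 23.6% and 75.6% (means 1.00, 1.81, 0.291 and 1.56). With thinned cells, it was 37.4%, 73.6%, 22.8% and 56.3% (means 0.488, 1.32, 0.277 and 0.860). With only the members listed in every table, chosen after seeing the data, it was 52.9%, 80.5%, 20.9% and 72.1%.

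The pooled ratio of member pairs became 1.63 in XN4, 1.14 in XN1, 1.23 in CN4 and 1.94 in KN1 with no strata, 1.20 in XN4 and 1.16 in CN4 with 5 strata, 1.11 in XN1 and 1.25 in CN4 at 2 reads, and 1.20 in XN4 and 1.18 in CN4 with the cells of the normalized tables.

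Members past 2-fold, of either direction, numbered 32 of 56 (XN1 to XN4, beside 32.0% of all genes), 25 of 56 (CN4 to XN4, 35.6%), 16 of 56 (CN4 to XN1, 20.2%) and 17 of 32 (KN1 to XN4, 46.0%) with no filter on rare genes. Higher members no longer outnumbered lower ones in XN1 against XN4, with 16 higher and 16 lower (12 and 2 with the filter). The same held for CN4 against XN4, with 12 and 13 (10 and 2). CN4 to XN1 gave 7 and 9 (2 and 5), beside 9.13% and 11.0% of all genes. In KN1 against XN4, however, higher members still outnumbered lower ones, with 14 and 3 (7 and 3 with the filter). With a filter of 5% of cells, they were 8 of 14 (28.7%), 6 of 14 (32.0%), 4 of 15 (15.1%) and 3 of 7 (40.6%) for these, 9 of 9 for KN1 to XN1 (45.3%) and 7 of 13 for CN4 to KN1 (39.9%). In the normalized tables, CN4 to XN4 gave 7 of 24 (33.1%), and at 1.5-fold CN4 to XN1 gave 12 of 24 (36.8%). The cause of these changes was not tested, except that a filter changes the genes compared. The other 42 values moved by less than their counting interval or 1.5 times. Among them are the counts by the fraction of thinned cells, whose sum stayed within 1.5 times while their balance did not hold in the pairs with KN1: KN1 to XN4 went from 7 higher and 3 lower to 1 and 9, KN1 to XN1 from 5 and 10 to 2 and 14, and CN4 to KN1 from 7 and 6 to 15 and 3. Of the detections, 72.1% in XN1, 70.1% in CN4, 47.4% in XN4 and 19.4% in KN1 rested on 1 read, which limits the fractions. No paired analysis was possible because each line is 1 library, and no library could be left out.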
